A study of Homo sapiens with 6 samples.

Results

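Molecular chaperones of the HSP, DNAJ and CCT families were followed in HUVECs, primary endothelial cells cultured from the lining of the human umbilical vein. The chaperones were taken by name: every gene name that starts with HSPA, HSPB, HSPD, HSPE, HSPH, HSP90, DNAJA, DNAJB, DNAJC or CCT followed by a number, together with TCP1 and the heat shock factors HSF1 and HSF2. This gave 91 of 18317 gene names, of which 72 are genes, 15 pseudogenes, 2 read-through transcripts and 2 antisense RNAs. The study compared 3 libraries from cells transfected by lipofection with miR-483, a microRNA, and 3 that received 8OH-G miR-483, its form carrying the oxidised base 8-hydroxyguanine. In both groups RNA was isolated 48 hours after transfection, on day 2. The comparison asked how the oxidised form alters the messenger RNAs of the cell. The scramble control named in the protocol was not analysed here, so a difference below lies between the microRNA forms and has no untreated level beside it. The labels do not give the arm of miR-483, the guanine that is oxidised, or whether replicate libraries stand for different cultures or donors. The p-values therefore measure only the spread between these libraries, which may be technical.

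Chaperones bind unfolded or partly folded proteins and keep them from aggregating. HSP70 proteins (HSPA genes) hold short exposed stretches in cycles of ATP hydrolysis that J-domain proteins (DNAJ genes) start, and hand many clients on to HSP90 or to ring-shaped chaperonins. The chaperonin of the cytosol is the CCT ring, which folds actin and tubulin, and that of the mitochondrial matrix is HSPD1 (HSP60) with its lid HSPE1 (HSP10). HSF1 is the transcription factor that raises many of these genes after heat or other protein damage. In endothelium, HSP90 is known as a partner of nitric oxide synthase and HSPB1 as a small heat shock protein linked to actin filaments.

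The deposited values were read as FPKM, fragment counts divided by gene length and by library size, a level that can be compared between genes. Totals ran from 1396537 to 1687283 FPKM per library, and 71.3% to 76.6% of each total lay on mitochondrially encoded genes. The number of reads behind a value is not known, so the SD over 3 libraries stands for the precision. In miR-483 replicate 1, 2663 rows stood at 0, against 287 to 625 in the other libraries. Results were also recomputed without each library in turn. Of the 12 endothelial markers examined, 7 were lower with 8OH-G miR-483 and 0 higher, where 20.5% and 34.9% of all tested genes were. The summed level of these 12 was 2400 to 2421 FPKM with miR-483 and 1485 to 1747 FPKM with 8OH-G miR-483. Of 10 leukocyte markers only CD68 and LYZ had a value, with summed levels of 14.2 to 17.7 and 6.49 to 7.79 FPKM in the same order. Of 10 mural and fibroblast markers 7 had a value, of which RGS5, also made by endothelium, held nearly all of the summed 619.8 to 842 and 826 to 1019 FPKM. Of 7 epithelial markers KRT8, KRT18 and KRT19 had values, summing to 71.1 to 81.6 and 127 to 144 FPKM, and no erythroid marker had a value. The part of these markers in the results below was not tested. In RNA from whole cultures, fewer cells of a kind and less RNA per cell cannot be told apart.

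With 8OH-G miR-483 chaperone genes differed in both directions, also within the HSP70 and DNAJ families. The CCT ring, the mitochondrial chaperonin and HSP70, and the cytosolic HSP90 and constitutive HSP70 genes were 1.53-fold to 2.92-fold higher. Of the genes for chaperones of the endoplasmic reticulum (ER) most did not pass the test, and neither did the heat-inducible HSP70 genes. HSPA12B, HSPA2, DNAJB4 and the small heat shock gene HSPB1 were lower. Of the 91 names, 72 had at least 1 FPKM in at least 3 libraries and were tested, by limma on log2(FPKM + 1) with Benjamini-Hochberg adjustment over all 12712 tested genes. At an adjusted p under 0.05, 38 chaperone names were higher in the 8OH-G miR-483 libraries and 10 lower, or 52.8% and 13.9% of those tested. Over all tested genes the same rule called 34.9% higher and 20.5% lower, 55.4% in all. The median log2 change was 0.25 over the chaperones and 0.09 over all genes. Scaling the libraries to a common median ratio left 32 chaperone names higher and 15 lower, against a background of 28.2% and 26.5%, and quantile normalization left 30 and 13, against 27.1% and 28%. These scalings moved the median of all genes from 0.09 to 0.01 and -0.01, a shift against which small changes below have to be read. When the test asked for more than a 1.2-fold change, 23 chaperone names were higher and 5 lower, against 17.8% and 9.27% of all genes. The groups did not overlap in 43 chaperone names on the higher side and 11 on the lower, and in 39.5% and 23.7% of all tested genes. A called change of at least 1 on the log2 scale was found for 6 chaperones upward (HSPD1, DNAJC9, HSPE1, CCT2, HSPA9 and HSPA8) and 3 downward (HSPA12B, HSPA2 and DNAJB4), against 5.33% and 2.59% of all tested genes. Of the 38 higher names, HSPB6, HSP90AB3P and HSPD1P1 reached 1 FPKM in the 8OH-G miR-483 libraries alone, so they could enter the test only because they were high there. Requiring at least 1 FPKM in all 6 libraries left 67 names, of which 35 were higher and 10 lower.

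**Figure D1:**
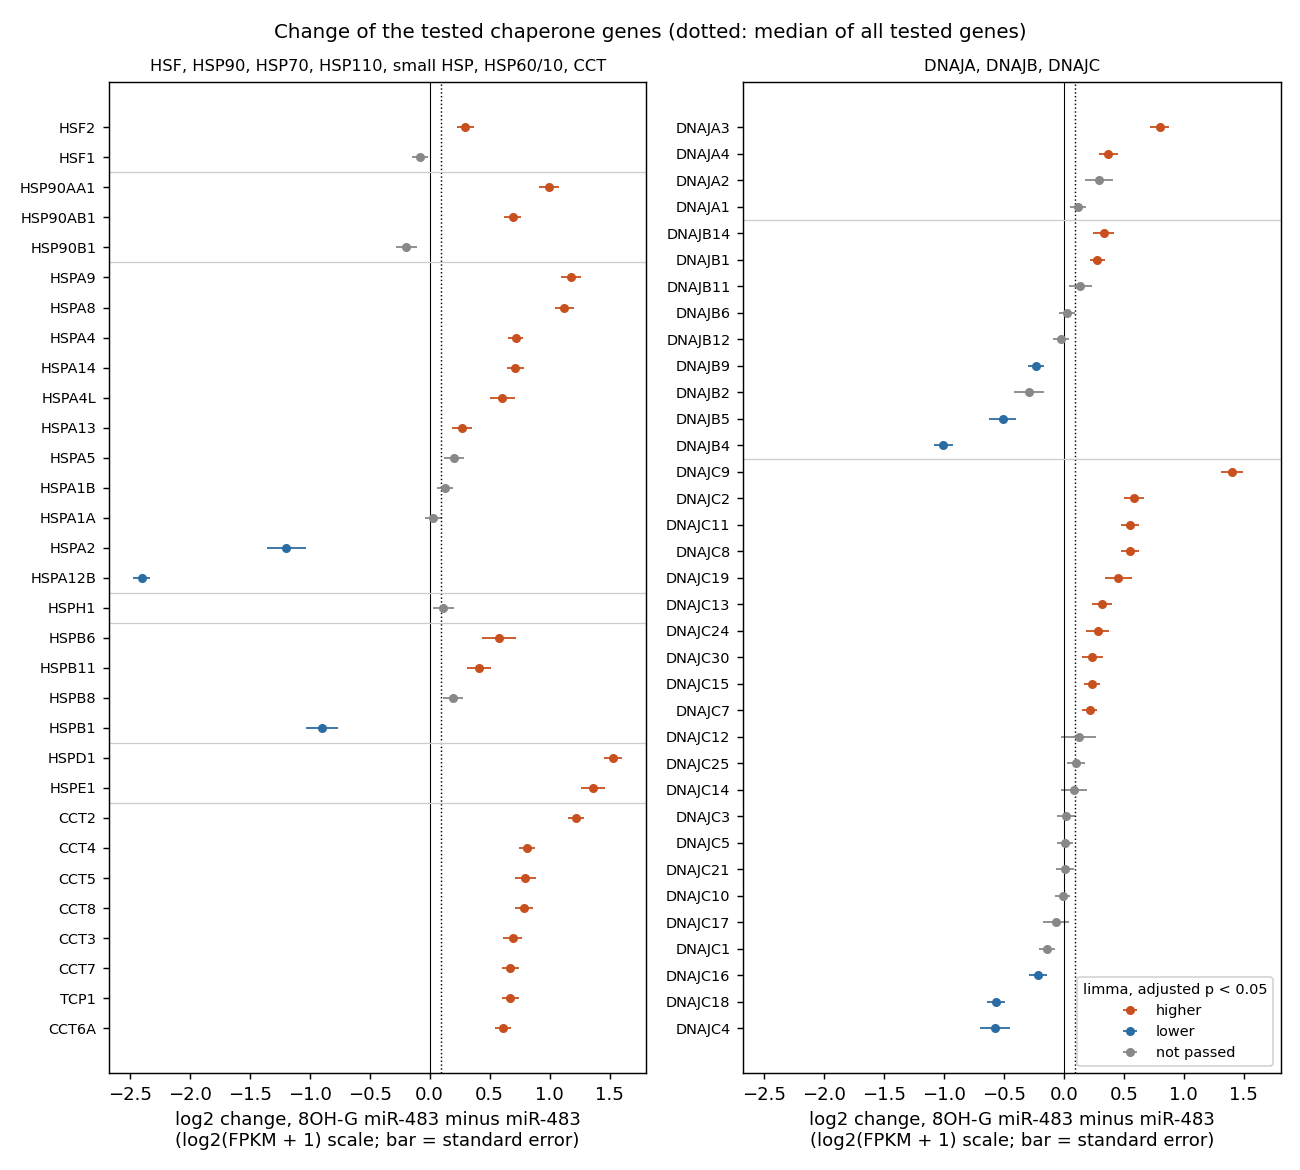
Fitted log2 change (8OH-G miR-483 minus miR-483, log2(FPKM + 1) scale) with its standard error for the 66 tested chaperone genes, pseudogenes and read-through transcripts left out; colour gives the call by limma and the dotted line the median of all tested genes, 0.09. All 8 CCT genes lie at 0.61 or above, whereas HSPA12B lies at -2.40 and the DNAJ genes spread to both sides of 0.

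The heat shock factors themselves changed little. HSF1 stood at 46.3, 49.9 and 50.03 FPKM with miR-483 and at 47.0, 47.5 and 43.5 FPKM with 8OH-G miR-483. The groups overlapped and the log2 change of -0.08 (SE 0.067) did not pass (limma adjusted p = 0.333), although it did after median-ratio scaling, at -0.18 (adjusted p = 0.0476). HSF2, a related factor active in development and in proteasome stress, was at 4.004, 4.41 and 4.34 FPKM and at 5.12, 5.63 and 5.63 FPKM. Each of its 8OH-G miR-483 values lay above each miR-483 value, a 1.28-fold higher mean (log2 change 0.30, SE 0.074, adjusted p = 0.00839), and the call was lost after quantile normalization (adjusted p = 0.128).

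HSF1 binds heat shock elements, inverted repeats of GAA units, in the promoters of its target genes, and ER stress factors bind a distinct element. RefSeq windows (GRCh38.p14) reaching from 250 bases before to 50 after a gene's start were found for 65 of the 72 chaperone genes. Where a gene had several starts, a match in any of its windows counted, so genes with more starts had more chances of a match. A pair of adjoining units (GAANNTTC or TTCNNGAA, each of which reads the same on both strands) stood in 23 of these 65 promoters (35.4%), against 16.2% of all 27305 genes with such a window and 13.8% of the tested ones. A run of 3 units (GAANNTTC followed by NNGAA, or TTCNNGAA followed by NNTTC, so that it contains the pair; both strands) stood in 6 of 65 (9.23%), those of HSPD1, HSPA8, HSP90AA1, HSP90AB1, DNAJA1 and DNAJB6, against 0.608% of all genes. Of these 6, the first 4 were higher with 8OH-G miR-483 and DNAJA1 and DNAJB6 did not pass. The pair was present in 13 of 32 higher, 2 of 8 lower and 5 of 20 not-passing chaperone genes with a window. The ER stress element (CCAAT, 9 further bases and CCACG, on either strand, so that it contains a CCAAT box) stood in 2 of 65, HSPA5 and HSP90B1, against 0.0916% of all genes. Matches are descriptions of letters and not of binding. The 250 bases before the start are shown 5′ to 3′ for 5 genes with the pair, chosen because they differ in their change, and for HSPA5 with the ER element. Of the 5, HSPD1, HSPA8 and HSP90AA1 also hold the 3-unit run, whereas HSPA1B and HSPB1 hold 1 pair each and no run. Capitals mark the fixed letters of the heat shock pair, and in HSPA5 those of the ER stress element. They are HSPD1 (chr2:197499841-197500090, minus strand), HSPA8 (chr11:123062137-123062386, minus strand), HSP90AA1 (chr14:102087045-102087294, minus strand), HSPA1B (chr6:31827488-31827737, plus strand), HSPB1 (chr7:76302423-76302672, plus strand) and HSPA5 (chr9:125241344-125241593, minus strand).
HSPD1: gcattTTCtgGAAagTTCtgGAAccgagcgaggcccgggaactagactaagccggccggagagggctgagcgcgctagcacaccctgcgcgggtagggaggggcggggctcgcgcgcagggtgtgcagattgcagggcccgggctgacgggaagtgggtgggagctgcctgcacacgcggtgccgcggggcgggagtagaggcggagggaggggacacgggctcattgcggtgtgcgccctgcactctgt
HSPA8: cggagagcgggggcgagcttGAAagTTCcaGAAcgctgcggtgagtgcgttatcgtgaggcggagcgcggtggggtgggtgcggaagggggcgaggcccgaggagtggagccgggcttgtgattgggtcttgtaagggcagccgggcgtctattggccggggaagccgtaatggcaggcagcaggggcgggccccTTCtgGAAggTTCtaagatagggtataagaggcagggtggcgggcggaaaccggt
HSP90AA1: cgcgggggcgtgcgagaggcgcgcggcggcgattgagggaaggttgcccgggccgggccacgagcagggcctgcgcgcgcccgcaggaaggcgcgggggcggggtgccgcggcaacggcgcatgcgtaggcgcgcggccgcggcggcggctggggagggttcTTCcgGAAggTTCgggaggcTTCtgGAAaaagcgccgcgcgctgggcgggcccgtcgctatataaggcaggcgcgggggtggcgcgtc
HSPA1B: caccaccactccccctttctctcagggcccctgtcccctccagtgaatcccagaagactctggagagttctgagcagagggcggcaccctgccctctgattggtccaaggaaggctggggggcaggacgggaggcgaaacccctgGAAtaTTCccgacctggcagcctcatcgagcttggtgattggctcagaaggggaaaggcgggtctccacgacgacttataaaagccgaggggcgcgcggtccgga
HSPB1: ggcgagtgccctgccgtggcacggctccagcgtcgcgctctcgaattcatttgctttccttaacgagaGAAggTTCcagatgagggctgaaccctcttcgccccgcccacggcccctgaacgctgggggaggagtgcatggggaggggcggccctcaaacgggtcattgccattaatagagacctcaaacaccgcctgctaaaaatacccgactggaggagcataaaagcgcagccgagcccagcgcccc
HSPA5: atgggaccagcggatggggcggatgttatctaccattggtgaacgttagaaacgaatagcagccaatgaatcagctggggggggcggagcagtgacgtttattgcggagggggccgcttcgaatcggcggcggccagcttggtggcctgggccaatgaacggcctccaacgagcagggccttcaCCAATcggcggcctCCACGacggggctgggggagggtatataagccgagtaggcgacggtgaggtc

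The cytosolic HSP90 genes rose and the ER paralog did not. HSP90AA1, the inducible form, had 174, 182 and 182 FPKM with miR-483 and 325, 371 and 383 FPKM with 8OH-G miR-483. HSP90AB1, the constitutive form, had 379, 407 and 382 FPKM and then 608, 636 and 648 FPKM. In both genes the groups were far apart, with means 2.00-fold and 1.62-fold higher (log2 changes 1.00, SE 0.082, and 0.69, SE 0.072; adjusted p = 2.06e-05 and 7.04e-05). The ratio of HSP90AB1 to HSP90AA1 was 2.17 ± 0.0726 with miR-483 and 1.76 ± 0.0973 with 8OH-G miR-483, without overlap. For such single ratios of 3 libraries against 3, an exact permutation test cannot go below a two-sided p of 0.1, so they are given without a test. HSP90B1, the HSP90 of the ER known as GRP94, had 614, 680 and 601 FPKM with miR-483 and 514, 609 and 537 FPKM with 8OH-G miR-483. Its groups overlapped and the log2 change of -0.19 (SE 0.091) did not pass (adjusted p = 0.103). It was called lower after median-ratio scaling (-0.29, adjusted p = 0.0213), after quantile normalization (-0.23, adjusted p = 0.00789), with the replicate number as a block (adjusted p = 0.0213) and without 8OH-G miR-483 replicate 2 (-0.26, adjusted p = 0.0335). The promoters of HSP90AA1 and HSP90AB1 hold the 3-unit heat shock run and that of HSP90B1 the ER stress element. Whether these elements bear on the changes was not tested.

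Among 11 tested HSP70 (HSPA) genes, 6 were higher, 2 lower and 3 did not pass, or 54.5% higher and 18.2% lower against 34.9% and 20.5% of all genes. HSPA8, the constitutive cytosolic HSP70 (HSC70), had 343, 387 and 371 FPKM with miR-483 and 792, 764 and 842 FPKM with 8OH-G miR-483. HSPA9, mortalin, which pulls imported proteins into the mitochondrial matrix, went from 40.1, 46.0 and 47.6 FPKM to 100.3, 98.0 and 107 FPKM. Both means were more than doubled, 2.18-fold and 2.29-fold, with log2 changes of 1.12 (SE 0.080, adjusted p = 9.86e-06) and 1.18 (SE 0.081, adjusted p = 8.41e-06). HSPA4, a nucleotide exchange factor of the HSP110 kind, rose 1.67-fold to 48.1 ± 1.64 FPKM, and its relative HSPA4L rose 1.79-fold to 3.61 ± 0.602 FPKM. HSPA14, the HSP70 of the ribosome-associated complex, rose 1.71-fold to 16.7 ± 0.936 FPKM. HSPA13, a microsomal HSP70, had a mean 1.22-fold higher (adjusted p = 0.0249), a call lost after either scaling (adjusted p = 0.115 and 0.172) and without replicate 2 (0.0828) or 3 (0.0646) of the miR-483 group or replicate 3 (0.0732) of the other.

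The heat-inducible HSP70 genes HSPA1A and HSPA1B and the ER gene HSPA5 did not pass the test. HSPA1A had 28.9, 29.4 and 29.4 FPKM with miR-483 and 28.8, 32.8 and 28.3 FPKM with 8OH-G miR-483, with overlap (log2 change 0.03, adjusted p = 0.734). HSPA1B had 24.8, 25.9 and 25.4 FPKM and then 27.1, 29.9 and 26.6 FPKM. Its groups did not overlap, but the log2 change of 0.13 (SE 0.068) did not pass (adjusted p = 0.137). These 2 genes encode the stress-induced HSP70 and are nearly identical, so reads may be shared between them. Their names were also repeated over several rows, from which the highest value per library was taken. Averaging those rows, most of which were at 0 in miR-483 replicate 1, gave log2 changes of 0.74 (SE 0.669, adjusted p = 0.401) for HSPA1A and 0.83 (SE 0.668, adjusted p = 0.347) for HSPA1B. HSPA5, the ER HSP70 known as BiP, had 249, 270.5 and 264 FPKM and then 277, 328 and 298 FPKM. This 1.15-fold higher mean did not pass as deposited (log2 change 0.20, SE 0.084, adjusted p = 0.0698) but passed after quantile normalization (0.22, adjusted p = 0.0173) and with the replicate number as a block (adjusted p = 0.0209). HSPA1L was below the test's minimum, at 0.307 to 0.399 FPKM. Within libraries, the ratio of HSPA8 to the sum of HSPA1A and HSPA1B was 6.71 ± 0.310 with miR-483 and 13.9 ± 1.58 with 8OH-G miR-483, and that of HSPA9 to HSPA5 was 0.170 ± 0.00938 and 0.340 ± 0.0357, both without overlap.

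HSPA12B and HSPA2 were the HSP70 genes that fell. HSPA12B, a distant HSP70 relative made largely by endothelial cells, had 40.5, 43.5 and 44.5 FPKM with miR-483 and 7.27, 7.63 and 6.99 FPKM with 8OH-G miR-483. The groups lay far apart, the mean was 5.87-fold lower, and this was the largest change of any tested chaperone (log2 change -2.40, SE 0.068, adjusted p = 3.5e-07). Like HSPA12B, 7 of the 12 endothelial markers given above were lower, beside 20.5% of all tested genes. HSPA2, an HSP70 best known from spermatogenesis, had 6.60, 4.34 and 7.18 FPKM and then 1.93, 2.47 and 1.74 FPKM, a 2.96-fold lower mean (log2 change -1.19, SE 0.163, adjusted p = 0.000348). HSPH1, the inducible HSP110 exchange factor, had 49.6, 45.4 and 56.3 FPKM and then 52.0, 55.0 and 56.5 FPKM, with overlap (log2 change 0.11, adjusted p = 0.291).

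**Figure D2:**
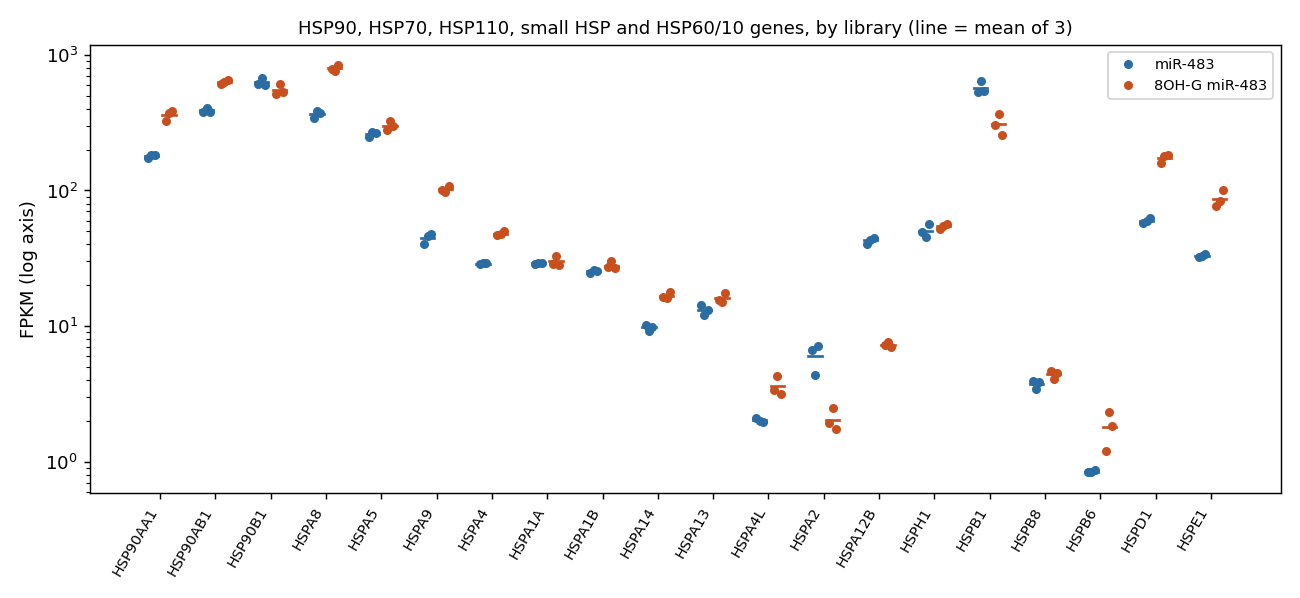
FPKM on a log axis in each of the 3 miR-483 and 3 8OH-G miR-483 libraries for 20 HSP90, HSP70, HSP110, small HSP and HSP60 and HSP10 genes; lines are means. HSPA8 moves from a mean of 367 to 799 FPKM and HSPD1 from 59.9 to 175 FPKM, HSPA1A overlaps, and HSPA12B drops from 42.8 to 7.30 FPKM.

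Of the genes named HSPB, HSPB1 was lower, HSPB8 did not pass, and the higher calls were those of HSPB6 and HSPB11. HSPB1 (HSP27) was the second most abundant chaperone transcript of the miR-483 libraries, at 533, 643 and 541 FPKM, and had 306, 366 and 257 FPKM with 8OH-G miR-483. Its groups did not overlap and its mean was 1.85-fold lower (log2 change -0.89, SE 0.135, adjusted p = 0.000598). HSPB6 (HSP20) had 0.833, 0.832 and 0.862 FPKM and then 1.201, 2.33 and 1.83 FPKM. It entered the test through the 8OH-G miR-483 libraries alone and was untested when any of them was left out, so its values are given as a description. HSPB8, which works with BAG3 in removing aggregates, had 3.90, 3.41 and 3.85 FPKM and then 4.69, 4.05 and 4.503 FPKM. Its groups were apart, yet the change did not pass (log2 change 0.20, SE 0.082, adjusted p = 0.0715), except with the replicate block (0.0401) and without 8OH-G miR-483 replicate 2 (0.048). HSPB11, which carries the family's name but encodes a subunit of the intraflagellar transport machinery, rose 1.36-fold to 15.3 ± 1.47 FPKM (adjusted p = 0.00804).

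The mitochondrial chaperonin gene HSPD1 had the largest called rise of the chaperones. HSPD1 had 57.6, 59.9 and 62.3 FPKM with miR-483 and 161, 180.1 and 184 FPKM with 8OH-G miR-483. HSPE1 had 32.1, 32.7 and 33.9 FPKM and then 76.2, 83.2 and 100.3 FPKM. Both pairs of groups were widely separated, with means 2.92-fold and 2.63-fold higher (log2 changes 1.53, SE 0.076, and 1.36, SE 0.099; adjusted p = 2.01e-06 and 1.11e-05). The genes lie head to head: their nearest RefSeq starts are 105 bases apart on opposite strands of chromosome 2, so that their windows share 204 bases. The HSPD1 window printed above belongs to a second start of HSPD1, 539 bases from that of HSPE1, and the HSPE1 window itself held no heat shock pair. The ratio of HSPD1 to HSPE1 was 1.79, 1.83 and 1.84 with miR-483 and 2.11, 2.17 and 1.83 with 8OH-G miR-483, with overlap.

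All 8 genes of the CCT ring that were tested rose, beside 34.9% of all genes. TCP1, the alpha subunit, had 102, 95.0 and 96.9 FPKM with miR-483 and 146, 162 and 163 FPKM with 8OH-G miR-483. CCT2, the beta subunit, had 50.8, 56.2 and 55.0 FPKM and then 124, 127 and 131 FPKM. For CCT3, the gamma subunit and the most abundant of them, the values were 125, 141 and 144 FPKM and then 226, 210.5 and 227 FPKM. No subunit had overlapping groups. The means were 1.53-fold (CCT6A), 1.60-fold (TCP1 and CCT7), 1.62-fold (CCT3), 1.73-fold (CCT8), 1.748-fold (CCT5), 1.77-fold (CCT4) and 2.36-fold (CCT2) higher. Adjusted p ran from 3.05e-06 (CCT2) to 0.000125 (CCT3) in limma, and all 8 stayed called under both scalings. The summed level of the 8 genes was 690 ± 24.3 FPKM with miR-483 and 1173 ± 37.4 FPKM with 8OH-G miR-483, a 1.70-fold higher mean.

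The ring contains the subunits in equal numbers, whereas their transcripts differed. In each miR-483 library the most abundant subunit transcript was 2.46 to 2.62 times the least abundant, and in each 8OH-G miR-483 library 1.96 to 2.29 times, without overlap. CCT2 was the lowest of the 8 with miR-483 (54.0 ± 2.87 FPKM) and stood between CCT8 and CCT5 in mean level with 8OH-G miR-483 (127 ± 3.80 FPKM), where it did not differ from them beyond the spread. The ratio of CCT2 to TCP1 was 0.496, 0.592 and 0.567 with miR-483 and 0.844, 0.785 and 0.804 with 8OH-G miR-483, without overlap. CCT6B, the testis form of the zeta subunit, was below the test's minimum at 0.0382 to 0.304 FPKM.

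**Figure D3:**
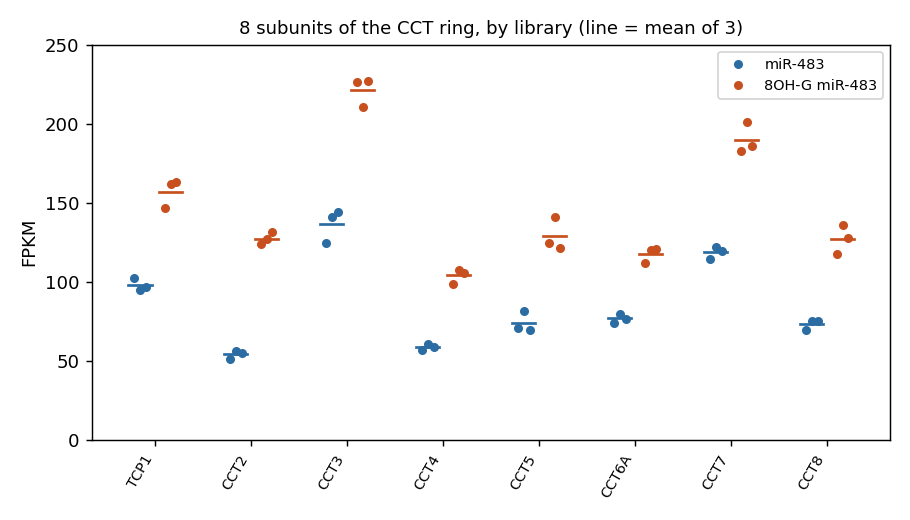
FPKM of the 8 CCT subunit genes in each library, with lines at the group means. In every subunit the 3 8OH-G miR-483 points lie above the 3 miR-483 points, and CCT2 moves from the lowest level, 54.0 FPKM, to 127 FPKM.

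J-domain genes moved in both directions. Of 35 tested DNAJ genes, 14 were higher and 6 lower. The other 15 did not pass, and the median log2 change was 0.12. The shares, 40.0% higher and 17.1% lower, lie near those of all genes, 34.9% and 20.5%. By class, 2 of 4 DNAJA genes were higher, 2 of 9 DNAJB genes higher and 3 lower, and 10 of 22 DNAJC genes higher and 3 lower. After median-ratio scaling the DNAJC counts were 6 higher and 5 lower.

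DNAJC9, a J-domain protein that also binds histones H3 and H4, had the largest rise. It had 8.84, 9.06 and 10.2 FPKM with miR-483 and 23.5, 27.3 and 28.5 FPKM with 8OH-G miR-483, a 2.82-fold higher mean without overlap (log2 change 1.40, SE 0.090, adjusted p = 6.11e-06). DNAJA3 (TID1), the main J-protein of the mitochondrial matrix, had 13.8, 14.4 and 16.5 FPKM and then 27.7, 26.1 and 26.0 FPKM, a 1.79-fold higher mean. Its name is repeated, and in miR-483 replicate 1 another of its rows was at 0. DNAJC2, the partner of HSPA14 at the ribosome, rose 1.54-fold to 20.4 ± 1.56 FPKM, beside the 1.71-fold of HSPA14. DNAJC8, a spliceosome-associated J-protein, rose 1.48-fold to 75.8 ± 5.05 FPKM. DNAJC11 and DNAJC19, mitochondrial membrane proteins, rose 1.49-fold to 29.3 ± 1.4999 FPKM and 1.41-fold to 12.02 ± 1.26 FPKM. The other members of the 10 largest rises, DNAJA4, DNAJB14, DNAJC13 (an endosomal protein) and DNAJC24 (a factor of diphthamide synthesis), had means 1.25-fold to 1.33-fold higher. Calls at this size were fragile: that of DNAJC24 was lost after either scaling (adjusted p = 0.114 and 0.273) and without replicate 2 of the miR-483 group (0.094) or replicate 1 (0.0883) or 3 (0.0887) of the other. The calls of DNAJB14 and DNAJC13 were lost after quantile normalization (adjusted p = 0.105 and 0.053).

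DNAJB4 had the largest fall among the J-domain genes. It had 68.8, 66.1 and 72.1 FPKM with miR-483 and 32.3, 37.7 and 31.9 FPKM with 8OH-G miR-483, a 2.03-fold lower mean (log2 change -1.01, SE 0.080, adjusted p = 1.8e-05). DNAJB4 is a cytosolic partner of HSP70, close in sequence to DNAJB1 and DNAJB5. DNAJB5 fell from 5.02, 5.29 and 4.89 FPKM to 3.50, 3.80 and 2.58 FPKM (1.54-fold, adjusted p = 0.00471). DNAJB1 (HSP40), the heat-inducible member of that trio, went the other way, from 22.2, 23.3 and 23.0 FPKM to 26.8, 29.3 and 27.9 FPKM, a 1.22-fold higher mean (adjusted p = 0.00563). DNAJB1 was picked after its values were seen. The 3 relatives thus did not move together. The promoters of DNAJB1 and DNAJB4 hold the heat shock pair and that of DNAJB5 does not, and the part of the pair in their changes was not tested. DNAJC18 fell 1.57-fold to 5.27 ± 0.329 FPKM and DNAJC4 fell 1.51-fold to 14.6 ± 2.72 FPKM. DNAJB9 (ERdj4), an ER partner of BiP, was 1.205-fold lower at 5.42 ± 0.0818 FPKM (adjusted p = 0.0148), a call lost without miR-483 replicate 3 (0.0657). DNAJC16 fell 1.19-fold (adjusted p = 0.0356), and this call was lost when any library other than miR-483 replicate 2 was left out (adjusted p from 0.0517 to 0.121).

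At the threshold, DNAJC30, a mitochondrial J-protein, lay just inside (5.73, 6.42 and 6.83 FPKM against 7.52, 8.35 and 7.04 FPKM, adjusted p = 0.0458), and the call was lost in most alternatives, including either scaling (0.167 and 0.47). DNAJA2, a cytosolic HSP70 partner, lay just outside (23.2, 23.0 and 20.4 FPKM against 24.4, 33.3 and 25.4 FPKM, adjusted p = 0.0602). DNAJA2 passed with the replicate block (0.0295) and without 8OH-G miR-483 replicate 1 (0.0387). DNAJA1, the most abundant J-domain transcript, had 121, 127 and 126 FPKM and then 130.3, 142 and 135 FPKM, with no overlap but a log2 change of 0.12 that did not pass (adjusted p = 0.158). DNAJA1 was also named after its values were seen. The remaining genes that did not pass were DNAJB2, DNAJB6, DNAJB11, DNAJB12, DNAJC1, DNAJC3, DNAJC5, DNAJC10, DNAJC12, DNAJC14, DNAJC17, DNAJC21 and DNAJC25, with log2 changes from -0.29 (DNAJB2) to 0.14 (DNAJB11). DNAJB2 was called lower after median-ratio scaling (-0.38, adjusted p = 0.0304) and after quantile normalization (-0.41, adjusted p = 0.0267). It was also called lower without 8OH-G miR-483 replicate 2 (-0.42, adjusted p = 0.0103). DNAJC7, a partner of HSP70 and HSP90, was called higher (0.22, adjusted p = 0.0173) but not without miR-483 replicate 3 (0.0742), and was named after its values were seen.

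Sorted by compartment, an ordering made with the values known and given as a description, the mitochondrial and ER genes were as follows. The 8 genes placed in the mitochondrial set were HSPD1, HSPE1, HSPA9, DNAJA3, DNAJC11, DNAJC15, DNAJC19 and DNAJC30. This set may not hold every mitochondrial chaperone. All 8 were called higher, beside 34.9% of all genes, with a median log2 change of 0.68 and groups that did not overlap. Without miR-483 replicate 1, 6 of the 8 were called, as DNAJC15 (adjusted p = 0.0576) and DNAJC30 (0.15) were lost. Leaving out miR-483 replicate 2 or 3 or 8OH-G miR-483 replicate 1 or 2 left 7 of the 8, the lost gene being DNAJC15 without miR-483 replicate 3 (0.0522) and DNAJC30 in the other 3 cases (0.0781 to 0.135). Under each scaling 6 of the 8 were called, the exceptions being DNAJC15 and DNAJC30. Asking for a change beyond 1.2-fold kept 5 of the 8, and DNAJC15, DNAJC19 and DNAJC30 were lost. Of 8 genes whose products work in the ER lumen, HSPA13 was higher, DNAJB9 was lower and the other 6 missed the threshold (HSPA5, HSP90B1, DNAJB11, DNAJC1, DNAJC3 and DNAJC10). Their median was 0.00. After median-ratio scaling 0 were higher and 3 lower, with a median of -0.09, and after quantile normalization 1 was higher and 3 lower. DNAJC3 (P58IPK), an inhibitor of the stress kinase PERK, had 20.1, 18.5 and 19.2 FPKM with miR-483 and 20.3, 18.1 and 20.2 FPKM with 8OH-G miR-483. DNAJC10 (ERdj5), an ER disulfide reductase, had 33.3, 33.4 and 31.6 FPKM and then 31.6, 32.3 and 33.8 FPKM. In both genes the groups overlapped.

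**Figure D4:**
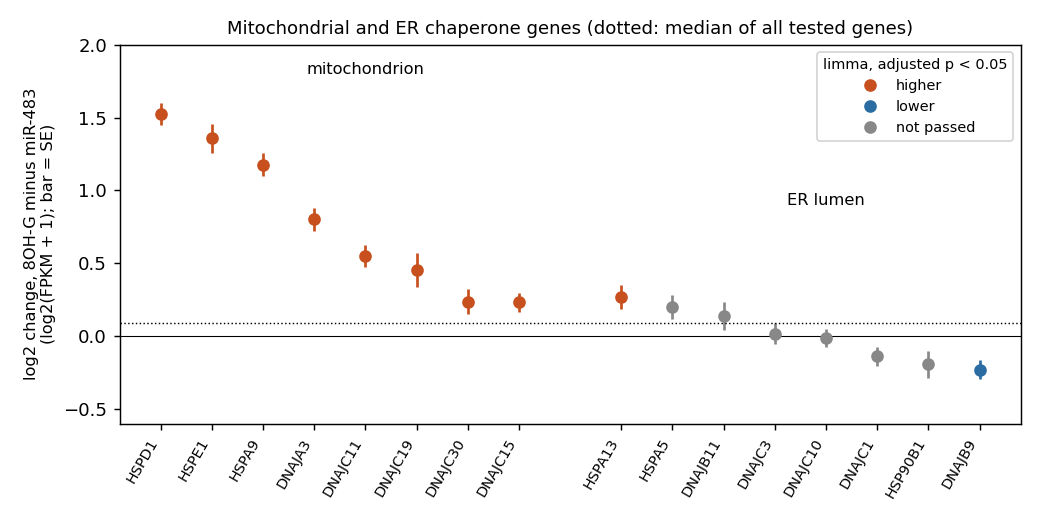
Fitted log2 change with its standard error for 8 mitochondrial and 8 ER lumen chaperone genes; colour gives the call by limma and the dotted line the median of all tested genes, 0.09. Mitochondrial genes span 0.23 to 1.53, and ER genes span -0.23 to 0.27.

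Co-chaperones and other folding genes outside the family names were followed with a list of 73 genes. Of 71 tested, 36 were higher and 7 lower (50.7% and 9.86%, against 34.9% and 20.5% of all genes), with a median log2 change of 0.23. Of 16 HSP90 partners, 11 were higher and 2 lower. Among them the immunophilin FKBP5 had 3.10, 3.17 and 3.07 FPKM with miR-483 and 6.91, 7.59 and 9.29 FPKM with 8OH-G miR-483, a 2.55-fold higher mean and the largest fitted rise among the tested genes of the list (adjusted p = 3.53e-05). TTC4 rose 2.23-fold to 11.5 ± 0.0491 FPKM and CHORDC1 2.10-fold to 36.8 ± 5.18 FPKM. AHSA2, related to the HSP90 activator AHSA1, was 1.31-fold lower and FKBP8, an anchored immunophilin, 1.24-fold lower.

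Of 8 genes listed for mitochondrial proteostasis, 6 were higher and 0 lower, where 34.9% and 20.5% of all genes were. The mitochondrial factors GRPEL1, GRPEL2, DNLZ and HSCB, listed with the HSP70 partners, did not pass (log2 changes 0.12, 0.14, 0.11 and -0.045). TRAP1, the HSP90 of mitochondria, had 21.2, 24.5 and 22.4 FPKM and then 47.8, 48.3 and 45.9 FPKM, a 2.09-fold higher mean (adjusted p = 8.45e-06), beside 2.00-fold for cytosolic HSP90AA1. The disaggregase CLPB rose 2.18-fold to 9.15 ± 0.358 FPKM. Of 14 CCT partners, 8 were higher and 2 lower. PDCL3, a phosducin-like cofactor of CCT, rose 1.88-fold to 20.3 ± 0.660 FPKM, and 4 of the 6 prefoldin subunits, which deliver actin and tubulin to the ring, were higher. TBCD, a tubulin folding cofactor, was 1.32-fold lower. Of 15 tested HSP70 partners, including mitochondrial and ER factors, 5 were higher and 0 lower, and of the remaining 18 tested genes 6 were higher and 3 lower. In both sets 33.3% were higher, near the 34.9% of all genes. Of the ER factors among the HSP70 partners, SIL1 and HYOU1 were higher (log2 changes 0.38 and 0.25, limma adjusted p = 0.00677 and 0.0114). SERPINH1 did not pass (0.16, adjusted p = 0.214). CLU, the secreted chaperone clusterin, had 88.5, 120.3 and 94.3 FPKM and then 37.7, 43.3 and 28.7 FPKM, a 2.76-fold lower mean (adjusted p = 0.000135). HSF4, a heat shock factor of the lens, had 1.72 ± 0.168 and 0.779 ± 0.207 FPKM, and BBS12, a chaperonin-like gene, had 1.68 ± 0.111 and 0.944 ± 0.0292 FPKM. BBS12 entered the test only through the miR-483 libraries. HSF4 reached 1 FPKM in these and, at 1.005 FPKM, in 8OH-G miR-483 replicate 1. The calls of both genes therefore support nothing, and requiring 1 FPKM in all 6 libraries left 5 lower genes in the list. Without miR-483 replicate 2 the lower genes of the list numbered 4.

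Names below the test's minimum were 6 genes (CCT6B, HSPA1L, DNAJC6, DNAJC22, DNAJC27 and DNAJC28), 11 pseudogenes and 2 antisense RNAs, all between 0 and 1.09 FPKM in every library.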

How the data were processed

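RNA sequencing values of 6 HUVEC libraries, 3 per group by their titles, were analysed. Cutadapt, STAR, HTSeq, DESeq2 and hg19 were used per the submitters' processing notes, with no versions or order. The deposited files hold 1 decimal value on each of 20792 rows and name no unit. FPKM was inferred for what the authors deposited: totals exceed what TPM or CPM allow, and values times gene length of 13993 nuclear genes summed to nearly equal amounts across libraries. Over 201 trial depths at most 58.7% of 150 low genes fell within 0.05 log2 of whole reads, so depth is unknown and no count test was run.

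Rows with date-like names (24) were left out, and each of 744 repeated names took its highest value per library. In miR-483 replicate 1 only 14 of these names had the same value on all their rows. How strand and multi-mapped reads were treated is not stated in the labels, so near-identical and overlapping genes are uncertain.

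Values were fitted as log2(FPKM + 1) with limma 3.58.1 (R 4.3.3, trend and robust, group as the only term) over genes that reached 1 FPKM in 3 or more libraries. P-values were adjusted by Benjamini-Hochberg over 12712 genes at a threshold of 0.05. The fit was also run on simulated data in which few genes changed, unlike these data, so that run does not bear on the calls here. Fitted changes understate low genes, and N-fold values are ratios of mean FPKM. Means carry the SD over 3 libraries.

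Genes named were the tested HSF, HSP and CCT genes, up to 10 called rises and falls of DNAJ genes without overlap, those nearest the threshold, and the 6 largest rises and falls of the partner list. Members and lists were chosen with earlier results of these data known. Alternatives covered pseudocounts, filters, scalings, a replicate block, each library left out, repeated names, the variance model and a fold threshold.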

Additional observations from a re-analysis of the deposited data

How the results depend on the processing

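Of the 38 higher and 10 lower chaperone names, the counts ran from 32 to 35 and from 8 to 11 when each library was left out in turn, and were 38 and 10 with a pseudocount of 0.1 or 0.5 and without trend and robust variance. Those of the partner list ran from 33 to 38 and from 4 to 6. A fold threshold of 1.2 in the test left 23 chaperones higher and 5 lower, 22 and 2 partner genes, and 2257 and 1179 of all genes (17.8% and 9.27%), as a stricter test must. The replicate block gave 40 higher and 11 lower chaperones. Same-numbered libraries deviated together with correlations of 0.017, 0.33 and 0.012, and miR-483 replicate 1 followed 8OH-G miR-483 replicate 3 more closely (0.22), so the numbers were not taken as pairs. Quantile normalization brought the median log2 change of all genes to -0.01 and that of the chaperones to 0.15. Among names that did not pass, the sign turned after median-ratio scaling for DNAJB6 (-0.069), DNAJC14 (-0.0060), DNAJC21 (-0.081), DNAJC25-GNG10 (-0.017), DNAJC3 (-0.075), DNAJC5 (-0.082) and HSPA1A (-0.064). After quantile normalization it turned for the same names (-0.031, -0.028, -0.11, -0.094, -0.070, -0.074 and -0.062) and for DNAJC25 (-0.0023). With each library left out in turn, the sign turned for 11 names, with ranges of -0.053 to 0.0071 for DNAJB12, -0.0076 to 0.067 for DNAJB6, -0.036 to 0.0102 for DNAJC10, -0.018 to 0.26 for DNAJC12, -0.032 to 0.18 for DNAJC14, -0.15 to 0.022 for DNAJC17, -0.034 to 0.051 for DNAJC21, -0.052 to 0.14 for DNAJC25-GNG10, -0.0087 to 0.069 for DNAJC3, -0.036 to 0.046 for DNAJC5 and -0.033 to 0.068 for HSPA1A. The cause was not tested. Averaging repeated names lowers miR-483 replicate 1 by construction. Without read counts, the precision of low values rests on 3 libraries alone.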

Other observations

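The order of the most abundant chaperone transcripts differed between the groups. With miR-483 it ran HSP90B1 (632 FPKM), HSPB1 (573), HSP90AB1 (390), HSPA8 (367), HSPA5 (261) and HSP90AA1 (179). With 8OH-G miR-483 it ran HSPA8 (799 FPKM), HSP90AB1 (631), HSP90B1 (553), HSP90AA1 (359), HSPB1 (310) and HSPA5 (301). HSPA8 thus went from 8.597% to 14.3% of the summed level of all 72 chaperone genes, and HSPB1 from 13.4% to 5.53%. In each library the ratio of HSPA8 to HSPB1 was 0.643, 0.601 and 0.685 with miR-483 and 2.59, 2.09 and 3.28 with 8OH-G miR-483, without overlap. The summed level of the chaperone genes was 4268 ± 181 FPKM and 5599 ± 212 FPKM.

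Tested pseudogenes had the direction of their parent genes: HSPD1P1 (0.744 to 1.78 FPKM), HSP90AB3P (0.859 to 1.32 FPKM) and CCT6P1 (2.71 to 3.35 FPKM) had higher means and HSPB1P1 (3.96 to 2.43 FPKM) a lower one, and reads may be shared with the parents. HSPD1P1 and HSP90AB3P entered the test through the 8OH-G miR-483 libraries alone. The CCT6P1 call was lost after either scaling (adjusted p = 0.139 and 0.338), with the replicate block (0.0539) and without any library other than 8OH-G miR-483 replicate 2 (0.0601 to 0.132). The read-through HSPE1-MOB4 was listed at 0 in miR-483 replicate 1 and at 9.64 and 8.42 FPKM in the other miR-483 libraries, and had 22.6, 19.4 and 3.98 FPKM with 8OH-G miR-483, with overlap (adjusted p = 0.365).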
